A study of Mus musculus with 7 samples.

Results

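Jchain, Mzb1, Slpi and Prg2 were followed in bulk RNA sequencing of splenic memory B cells (MBCs) and plasma cells (PCs). They are 4 of the 48795 genes in the deposited table. They were picked by name because their transcripts stood out in PCs against MBCs in these libraries, so their levels, ranks and differences between the groups are given as descriptions, without a test. All mice were wild type female C57BL/6 animals aged 8-12 weeks, immunized intravenously with sheep red blood cells, and all cells were taken from the spleen 10 days later. MBCs (3 libraries) were sorted as B220+ CD138- IgD- CD38+ CD273+ cells, and PCs (4 libraries) as B220lo CD138+ IgD- cells. No label states which libraries came from separate mice or how many mice a library holds, so any p-value measures the spread between these libraries, which may be technical. Both populations passed over beads against CD43 before the sort.

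Antibody-secreting PCs devote much of their endoplasmic reticulum (ER) to folding and exporting immunoglobulin. Jchain encodes the joining chain, a small protein that links IgM or IgA subunits into polymers and lets the polymeric immunoglobulin receptor bind them. Mzb1 encodes an ER-resident partner of the chaperone GRP94 that supports antibody secretion and takes part in calcium regulation in marginal zone B cells and PCs. Slpi encodes a secreted inhibitor of serine proteases such as neutrophil elastase and cathepsin G, best known from epithelia and phagocytes. Prg2 encodes the precursor of major basic protein, the main protein of the eosinophil granule. Jchain and Mzb1 thus belong to antibody production, while Slpi and Prg2 are better known from other cell types.

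In the GENCODE annotation of mouse build GRCm38, which is also the build named in the submitters' processing notes, all 4 are protein-coding. Jchain (ENSMUSG00000067149) lies on chromosome 5 from 88519809 to 88527891 on the minus strand. Slpi (ENSMUSG00000017002) lies on chromosome 2 from 164354070 to 164389095 on the minus strand, and Prg2 (ENSMUSG00000027073) on the same chromosome from 84980461 to 84983632 on the plus strand. Mzb1 (ENSMUSG00000024353) is placed with its values. The interval of Slpi holds the microRNA gene Mir7678, while Jchain and Prg2 overlap no other annotated gene.

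The 250 bases before the RefSeq starts of Jchain and Slpi (build GRCm38.p6) are shown, 5′ to 3′ on the gene's strand, with motif matches in capitals. No such window was at hand for Prg2, and none was used for Mzb1. The Jchain window is chr5:88527898-88528147 and the Slpi window chr2:164356508-164356757, the latter inside the GENCODE interval of Slpi and outside its exons.
Jchain: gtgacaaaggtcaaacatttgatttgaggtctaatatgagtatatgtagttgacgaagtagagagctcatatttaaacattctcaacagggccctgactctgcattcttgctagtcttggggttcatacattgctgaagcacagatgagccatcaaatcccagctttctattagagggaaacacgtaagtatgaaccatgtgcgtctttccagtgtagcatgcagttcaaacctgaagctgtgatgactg
Slpi: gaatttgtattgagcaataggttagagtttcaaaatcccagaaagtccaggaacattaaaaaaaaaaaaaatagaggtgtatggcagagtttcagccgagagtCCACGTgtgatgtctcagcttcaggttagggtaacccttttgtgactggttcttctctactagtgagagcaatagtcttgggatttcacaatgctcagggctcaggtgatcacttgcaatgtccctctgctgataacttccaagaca
These 250 bases and the 50 that follow were searched on both strands for short letter patterns of known factors. Basal promoter patterns were TATAAA, the core of the TATA box, and the NF-Y pattern CCAAT. The B lineage pattern was the octamer ATGCAAAT, which Oct-2 and its coactivator recognise. Patterns of PC factors were the Blimp-1 core GAAAGTG and, for XBP1 and related factors, the core ACGTGG. The ETS-IRF composite element was searched as well. The Slpi window held 1 match, to ACGTGG on the opposite strand, beginning 147 bases before the start. This motif occurs in 8.31% of the 32851 RefSeq promoter windows of the same length. The Jchain window held 0 matches to any of the 6 motifs. The commonest of them, CCAAT, occurs in 37.4% of all windows and the rarest, ATGCAAAT, in 1.74%. Such matches are matches of letters and do not show binding.

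The values are TPM, the share of all transcripts that a gene takes after division by length, so levels of different genes can be compared within a library. Immunoglobulin genes took 1.65% to 3.16% of the TPM in MBCs and 49.4% to 55.9% in PCs, which lowers the TPM of every other PC gene. For comparisons between groups, TPM was therefore divided by a factor per library (1.48 to 2.05 in MBCs, 0.636 to 0.813 in PCs) to give scaled TPM. From steps between low values, 1 TPM of a transcript of 1 kb corresponded to an estimated 6.14 to 11.6 reads in MBCs and 9.18 to 16.1 reads in PCs. MBC replicate 3 was closer to PCs than the rest of its group was. Its Pearson's r with PC libraries, across 11573 genes that are not independent replicates, was 0.70 to 0.777, against 0.537 to 0.564 for MBC replicates 1 and 2. Within MBCs its r was 0.681 to 0.687, no lower than the 0.675 between MBC replicates 1 and 2. It had 18061 genes above 0, against 12983 and 11527 in those libraries, and the part of this in its r was not tested. In MBC replicate 3 Cd38, a gate marker, was 6.77 scaled TPM against 130.3 and 185.7 in the other MBC libraries. Among PC markers, 5 of 6 (Sdc1, Prdm1, Xbp1, Irf4 and Tnfrsf17) rose in PCs, and 7 of 10 B cell and MBC markers fell. The MBC gate markers Cd38 and Pdcd1lg2 did not pass the test (limma, adjusted p = 0.292 and 0.0905). Without MBC replicate 3 both were lower in PCs, with log2 fold changes of -3.21 and -3.82 (limma, adjusted p = 0.0015 and 0.0072). Results that rest on MBC replicate 3 are given with and without it.

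Jchain was the most abundant of the 4 in every library. PC replicates 1 to 4 held 9382, 13200, 7626 and 10805 scaled TPM, whereas MBC replicates 1 to 3 held 70.7, 62.2 and 136.6. The lowest PC library stood 55.8-fold above the highest MBC library. PCs averaged 10253 ± 2356 (SD, n = 4) against 89.8 ± 40.7 for MBCs (SD, n = 3), a ratio of 114, or 154 with MBC replicate 3 left out of the mean. On the scale of log2(scaled TPM + 1) the difference between the groups was 6.88, and it was 7.22 without MBC replicate 3. In bulk RNA, more transcripts per cell and more cells that express a gene cannot be told apart.

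Mzb1 lies on the minus strand of chromosome 18 from 35647267 to 35649367 and overlaps Spata24 on that strand, so reads in the shared stretch could have been given to either gene. PC replicates 1 to 4 held 1057, 1966, 871.3 and 1476 scaled TPM of Mzb1, whereas MBC replicates 1 to 3 held 20.1, 18.7 and 107.7. MBC replicate 3 was well above the others of its group, but all PC libraries were above it. Spata24 reached 12.3 TPM in MBC replicate 3, was at 0 in the other MBC libraries, and was at most 4.53 TPM in PCs, and its part in the Mzb1 values was not tested. The lowest PC library was 8.09-fold above the highest MBC library, the smallest such gap of the 4 genes. PCs averaged 1343 ± 486.7 (SD, n = 4) against 48.8 ± 51.0 for MBCs (SD, n = 3), a ratio of 27.5. The ratio became 69.3 when MBC replicate 3 was left out of the mean, so this library decides its size. With TPM as deposited, the ratio of means was 9.89 for Mzb1, 43.1 for Jchain and 72.3 for Slpi, and the lowest PC library was 3.04-fold, 21.3-fold and 11.2-fold above the highest MBC library. The log2 difference was 5.17 with all libraries and 5.96 without MBC replicate 3.

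Slpi reached 1553, 6997, 3594 and 3856 scaled TPM in PC replicates 1 to 4, against 8.52, 9.65 and 43.0 in MBC replicates 1 to 3. It varied more among PCs than the other 3 genes, with PC replicate 2 at 4.50-fold the level of PC replicate 1, yet the groups stayed 36.1-fold apart at their nearest values. PCs averaged 4000.2 ± 2247 (SD, n = 4) against 20.4 ± 19.6 for MBCs (SD, n = 3), a ratio of 196, or 440.2 with MBC replicate 3 left out of the mean. The log2 difference was 7.73, and 8.43 without MBC replicate 3.

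Prg2 was the one gene of the 4 with almost no reads in MBCs. MBC replicates 1 and 2 list it at 0, and MBC replicate 3 lists it at 0.42 TPM, an estimated 2.99 reads. In PCs it was 237.6, 417.1, 155.4 and 310.3 scaled TPM in replicates 1 to 4, from an estimated 740 to 2645 reads. With a floor of 3 reads per library over its annotated transcript of 838 bases, all 3 MBC libraries lay at or under the floor. The PC mean of 280.1 ± 111.1 scaled TPM (SD, n = 4) was 770-fold the mean MBC floor of 0.364. On deposited TPM it was 312-fold the floor. Both values compare means, not the nearest libraries. MBC replicate 3, at an estimated 2.99 reads, lay almost on its floor, so neither value is a strict lower bound. The fitted log2 difference of 7.96 depends on the added 1 and is not a bound either.

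**Figure D1:**
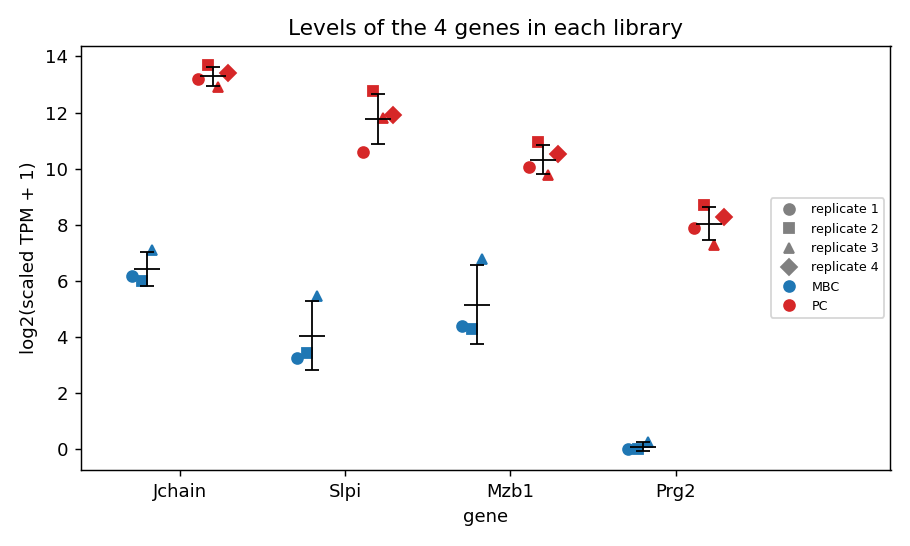
Level of each gene on the scale of log2(scaled TPM + 1) in the 3 MBC (blue) and 4 PC (red) libraries, with marker shapes for replicates. Black bars are mean ± SD per group. The PC points lie above all MBC points for each gene, and the genes were picked because they stood out in PCs. MBC replicate 3 is the highest of its group for all 4.

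The order of the 4 genes differed between the groups. As deposited, and so per length, mean TPM in PCs was 7199 ± 1373 for Jchain, 2846 ± 1520 for Slpi, 940.5 ± 309 for Mzb1 and 195.2 ± 70.1 for Prg2 (SD, n = 4). Jchain in its lowest PC library (5965 TPM) exceeded Slpi in its highest (4707 TPM), and Mzb1 in its lowest (672 TPM) exceeded Prg2 in its highest (280.6 TPM). Slpi and Mzb1 overlapped, since Slpi ranged from 987.6 TPM upward and Mzb1 reached 1323 TPM. Within each PC library, however, Slpi was above Mzb1. In MBCs Mzb1 was above Slpi in each library, while Jchain ranged from 92.2 to 280.4 TPM, Mzb1 from 27.7 to 221 TPM and Slpi from 14.3 to 88.3 TPM. These 3 ranges overlapped in MBCs, although every MBC library gave the order Jchain, Mzb1, Slpi, Prg2.

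Ratios within a library do not depend on the scaling. Slpi TPM over Mzb1 TPM was 1.47, 3.56, 4.13 and 2.61 in PC replicates 1 to 4, against 0.424, 0.517 and 0.40 for the MBC libraries in order. The values of the groups did not overlap, and MBC replicate 3 had the lowest ratio. Jchain over Mzb1 was 3.52, 3.33 and 1.27 in MBCs and 6.71 to 8.88 in PCs, so this pair kept a narrow ratio among PCs. Jchain over Slpi did not separate the groups, at 3.18 to 8.30 in MBCs and 1.89 to 6.04 in PCs. Mzb1 over Prg2 was 4.45 to 5.60 in PCs.

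Jchain acts on IgM and IgA, so its transcripts were set beside those of the heavy chains Ighm and Igha. For 100 TPM of Ighm plus Igha PC replicates 1 to 4 held 8.84, 33.3, 12.7 and 17.6 TPM of Jchain, whereas the MBC libraries held 2.94, 2.25 and 21.2 in order. MBC replicates 1 and 2 lay under all PC libraries, whereas MBC replicate 3 lay inside the PC range. In that library Ighm was 1311 TPM, against 3575 and 3591 TPM in the other MBC libraries, and Igha 8.56 TPM against 803.4 and 515.9 TPM. PC replicate 1 had the highest Ighm of the PCs (63468 TPM) and the lowest Jchain before scaling (5965 TPM), and PC replicate 2 the reverse (24356 and 8881 TPM). Igha made up 0.649% to 18.3% of the sum in MBCs and 1.98% to 8.57% in PCs. Ighm counts both the membrane and the secreted form.

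**Figure D2:**
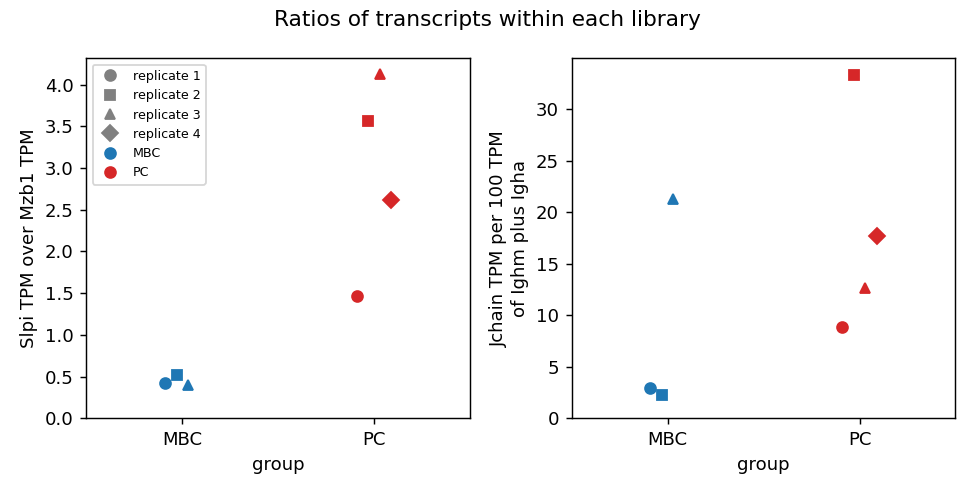
Ratios of deposited TPM within each library for MBCs (blue) and PCs (red), with marker shapes for replicates and axes from 0. The left panel shows Slpi over Mzb1, where all 3 MBC points (up to 0.517) lie under all 4 PC points (from 1.47). The right panel shows Jchain per 100 TPM of Ighm plus Igha, where MBC replicate 3 (21.2) lies among the PCs.

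Rank by TPM was taken among the 48366 genes of the table that are not immunoglobulin genes, with 1 the highest. Jchain ranked 4 or 5 in every PC library, after a ribosomal RNA gene (CT010467.1) and the mitochondrial ribosomal RNAs mt-Rnr2 and mt-Rnr1. Among nuclear protein-coding genes it ranked 1 in PC replicates 1, 2 and 4 and 2 in PC replicate 3. Its next neighbours were Hsp90b1, which encodes GRP94, at 5743 ± 959.2 TPM in PCs and B2m, the light chain of MHC class I, at 4876 ± 604.3 TPM (SD, n = 4). In MBCs Jchain ranked 801, 1245 and 330 in replicates 1 to 3. Slpi ranked 20, 7, 10 and 9 in PC replicates 1 to 4 and between 1206 and 5506 in MBCs. By mean rank in PCs its neighbours were mt-Co1, Ly6e and the ribosomal protein gene Rpl10 above, and Hspa5, Malat1 and Lars2 below.

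Mzb1 ranked 34, 13, 37 and 24 in PC replicates 1 to 4. In MBCs it ranked 3179, 3528 and 433, with MBC replicate 3 far from the others. Around it in PCs stood genes of general cell functions, namely ferritin light chain Ftl1, Rpl41 and the long noncoding RNA Gm26917 above, and Tpt1, Atp5b and Actb below. Actb, which encodes beta-actin, averaged 914.4 ± 246.6 TPM in PCs (SD, n = 4), so Mzb1 at 940.5 TPM was within the spread of it. Prg2 ranked 227, 130, 320 and 197 in PC replicates 1 to 4, and 14110 in MBC replicate 3. Its neighbours in PCs included the translation factor gene Eif4a2 (186.7 ± 48.9 TPM), the histone gene Hist1h1b (184.8 ± 44.7 TPM) and the vesicle traffic gene Arf4 (176.8 ± 36.8 TPM; SD, n = 4). The 4 genes together took 1.76%, 3.24%, 2.04% and 2.33% of the TPM outside immunoglobulin genes in PC replicates 1 to 4, and 0.0138% to 0.06% in MBCs.

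**Figure D3:**
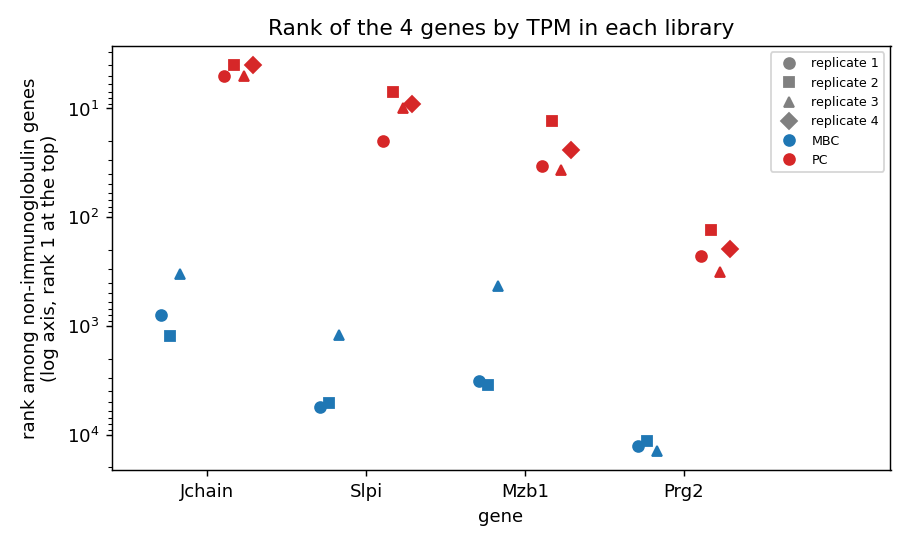
Rank by TPM among non-immunoglobulin genes in each MBC (blue) and PC (red) library, on a log axis with rank 1 at the top and marker shapes for replicates. Jchain sits at ranks 4 and 5 in PCs, Slpi at 7 to 20, Mzb1 at 13 to 37 and Prg2 at 130 to 320; Prg2 is listed at 0 in MBC replicates 1 and 2, which places it among all genes at 0.

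The 4 genes differed in how evenly the PC libraries expressed them. The SD of log2(scaled TPM + 1) among the 4 PC libraries was 0.33 for Jchain, 0.52 for Mzb1, 0.60 for Prg2 and 0.89 for Slpi. The median over the 11344 tested genes outside immunoglobulin was 0.47. Among the 200 genes nearest in PC level, whose median SD was near 0.30 for each member, Jchain was at the 57th percentile of SD and Mzb1 at 85.5%. Prg2 was at 97%, so for its level this transcript was unevenly spread, and Slpi was at 99.5%. Jchain, Slpi and Mzb1 stood in places 4, 12 and 23 by mean rank in PCs. Their 200 nearest genes were therefore mostly lower ones and do not match their level. In MBCs the SD was 0.60 for Jchain, 1.40 for Mzb1 and 1.23 for Slpi, beside a median of 0.91. These values rest on MBC replicate 3, since MBC replicates 1 and 2 differed by 0.18 for Jchain, 0.10 for Mzb1 and 0.16 for Slpi on the log2 scale, where the median difference over the tested genes was 1.01.

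All 4 genes were highest in PC replicate 2 and next highest in PC replicate 4. This order held for 10.1% of the 11344 tested genes outside immunoglobulin. PC replicate 3 was the lowest for Jchain, Mzb1 and Prg2, and PC replicate 1 for Slpi. In MBCs all 4 were highest in replicate 3, as were 34.9% of those genes. MBC replicate 3 and PC replicate 4 share a full title code, whose prefix the other 5 libraries do not carry. MBC replicate 1 and PC replicate 1 also share a full title code, as do MBC replicate 2 and PC replicate 3. The labels do not say what a code or its prefix marks. Within the other prefix (2 MBC and 3 PC libraries) the log2 differences were 7.19 for Jchain, 5.90 for Mzb1, 8.39 for Slpi and 7.89 for Prg2. The rarer prefix has 1 library per group.

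The higher values in MBC replicate 3 were unequal when set against PCs. As a percentage of the mean scaled TPM in PCs, Mzb1 was 8.02% in that library, Jchain 1.33%, Slpi 1.08% and Prg2 0.0731%. With TPM as deposited the same shares were 23.5%, 3.89%, 3.10% and 0.215%, so their order held while each was larger. Sdc1, the CD138 gene, was at 0.0982% of its scaled PC mean and Tnfrsf17, the receptor BCMA, at 0. Immunoglobulin genes as a sum were at 1.07%, under the 2.32% and 2.52% of MBC replicates 1 and 2. Hspa5 was at 9.93% and Xbp1 at 4.23%, against 9.30% and 6.87% in MBC replicate 1.

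Since Prg2 is a granule gene of eosinophils, 11 other eosinophil genes were examined. Of these, 6 were listed at 0 in all 7 libraries, among them eosinophil peroxidase (Epx), Siglecf and Cebpe. Prg3, the neighbouring paralogue of Prg2, was 1.34 and 0.91 TPM in PC replicates 2 and 4 and 0 in the other libraries. In PC replicates 2 and 4 Prg2 was 209-fold and 245-fold above Prg3. Ear2 was 0.65 and 0.96 TPM in the same PC libraries and 0 in the others. Ccr3 was 6.74 TPM in MBC replicate 1 and at most 0.19 TPM in any other library, and Alox15 did not exceed 0.03 TPM. The part of eosinophil RNA in the Prg2 values was not tested. The summed TPM of the 11 genes was 3.79 to 25.7 in MBCs and 3.03 to 7.30 in PCs, mostly from Il5ra, the interleukin 5 receptor chain that B lineage cells also use. Il5ra was the only gene of the list that could be tested and did not pass (log2 fold change 0.35, limma, adjusted p = 0.758). Of 8 basophil and mast cell genes, 5 were at 0 throughout and the sum reached at most 0.03 TPM in PCs.

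**Figure D4:**
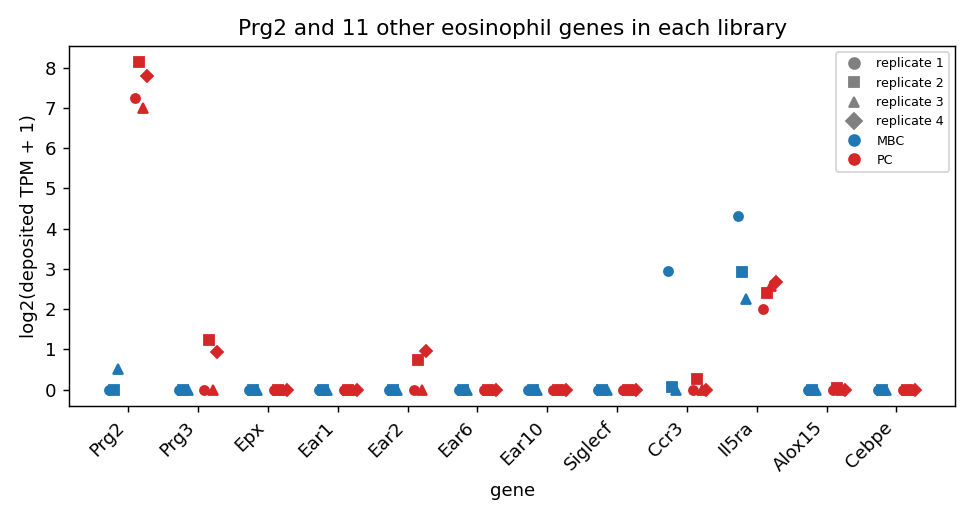
Deposited TPM, as log2(TPM + 1), of Prg2 and 11 other eosinophil genes in each MBC (blue) and PC (red) library, with marker shapes for replicates. Prg2 reaches 126.4 to 280.6 TPM in PCs, while Epx, Siglecf, Cebpe, Ear1, Ear6 and Ear10 are at 0 in every library.

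Slpi is known from phagocytes, and its target proteases come mostly from neutrophils and mast cells. Of 7 serine protease genes of these cells, Elane, Ctsg, Cma1, Mcpt4, Tpsab1 and Tpsb2 were at 0 in all 7 libraries, and Prtn3 was 0.84 TPM in MBC replicate 3 alone. Of 12 neutrophil genes, 9 were at 0 throughout, including Ltf, Ngp, Camp, Mpo and S100a9, and the sum was at most 2.88 TPM in MBCs and 2.43 TPM in PCs. The 8 macrophage genes summed to 11.8 to 62.4 TPM in MBCs and 17.7 to 25.7 TPM in PCs, with 0 of 5 tested genes past the threshold by limma. Of 7 T cell genes 3 could be tested, of which Cd3e and Trac rose in PCs (limma, adjusted p = 0.0081 and 0.0191) and Lck did not pass (-0.85, adjusted p = 0.669). The call of Trac was lost without MBC replicate 1, MBC replicate 2 or PC replicate 4, within the more frequent title prefix and with a replicate block by number, and that of Cd3e with either replicate block. The T cell list summed to 0 to 24.0 scaled TPM in MBCs and 15.3 to 40.2 in PCs, which overlap, and as deposited its highest sum was in MBC replicate 3 (49.3 TPM, against 9.71 to 32.7 TPM in PCs). The part of T cell RNA in the values of the 4 genes was not tested. Erythroid genes summed to 6713 TPM in MBC replicate 2 and at most 115.5 TPM in any other library.

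Other genes were tested between PCs and MBCs with limma over all 11573 genes at 1 TPM or more in at least 3 libraries. A gene was called at an adjusted p under 0.05 with a log2 fold change of at least 1 in size. Of all tested genes 6.41% were called higher in PCs and 2.14% lower, 8.55% in either direction, and the median log2 fold change was 0.14. Genes for building and moving polymeric antibody were mostly higher. Of 16 such genes 14 could be tested, 8 rose, 0 fell and 6 were not called, with a median log2 fold change of 3.33. The count of higher genes was 11 without MBC replicate 3, when 1 gene, Fcmr, was called lower.

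Ighm rose to 63629.8 ± 26475 scaled TPM in PCs (SD, n = 4) from 1674 ± 925 for MBCs (SD, n = 3; log2 fold change 5.36, SE 0.60; limma, adjusted p = 4.7e-04). Prdx4, an ER peroxiredoxin, was 3.60, 0 and 8.70 scaled TPM in MBCs and 110 to 158 in PCs, an increase of 5.23 (SE 0.67; limma, adjusted p = 0.0012). Pdia4, a protein disulfide isomerase, rose by 4.32 (SE 0.54) and its relative Txndc5 by 3.72 (SE 0.28). Igha was not called (4.81, SE 1.37; limma, adjusted p = 0.061), and it passed without MBC replicate 3 (2.72, adjusted p = 0.0204). Erp44, which holds back unassembled IgM in the ER, did not pass (0.19, SE 0.59; limma, adjusted p = 0.875) and overlapped between the groups. Pigr, the polymeric immunoglobulin receptor, was at most 0.28 TPM in any library and could not be tested.

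The list around Mzb1 held ER chaperones and calcium pumps, channels and sensors. Of its 14 genes, all tested, 5 rose, 1 fell and 8 were not called, with a median log2 fold change of -0.59. Hsp90b1, whose product GRP94 binds Mzb1, was 186.8 to 375.8 scaled TPM in MBCs and 7225 to 9121 in PCs (log2 fold change 4.97, SE 0.35; limma, adjusted p = 5.4e-05). The calcium-binding chaperone Calr rose by 3.31 (SE 0.33), and Hspa5, the chaperone BiP, by 3.44 (SE 0.28). The ER calcium pumps took opposite directions, since Atp2a2 rose (1.79, SE 0.38; limma, adjusted p = 0.0172) and Atp2a3 fell (-1.88, SE 0.42; adjusted p = 0.0234). Of the Orai, Stim and Itpr genes, which encode store-operated channels, calcium sensors and release channels, 0 of 8 were called. Without MBC replicate 3, the number of lower genes was 5 in place of 1, and the additional genes, named after their values were seen, were Itpr1, Itpr2, Stim2 and Orai2. The call of Atp2a3 was lost without MBC replicate 1, MBC replicate 2, PC replicate 1, PC replicate 2 or PC replicate 4. That of Atp2a2 was lost without PC replicate 2, 3 or 4. Either replicate block lost both calls. That of Atp2a3 was also lost with all genes above 0 tested. That of Atp2a2 was also lost with TPM as deposited and with immunoglobulin genes removed. As deposited, Atp2a2 overlapped between the groups, at 38.52, 19.5 and 68.52 TPM in MBCs and 44.34 to 70.25 TPM in PCs.

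Few other protease inhibitor genes were expressed beside Slpi. Of 26 other inhibitor genes 9 were at 0 in all libraries and 9 could be tested, of which 2 rose and 2 fell. None of the 9 listed genes of the WAP domain family, to which Slpi belongs, could be tested, and the highest value of any was 1.24 TPM (Wfdc17 in PC replicate 2). Serpina3f, a serpin, was 0 to 0.0539 scaled TPM in MBCs and 3.20 to 7.78 in PCs (log2 fold change 2.82, SE 0.48; limma, adjusted p = 0.006). Cst3, which encodes cystatin C, rose by 1.58 (SE 0.40; adjusted p = 0.0388). Serpinb1a, an intracellular inhibitor of elastase-like proteases, fell by 3.02 (SE 0.78; limma, adjusted p = 0.043) and Serpinb6b by 2.82 (SE 0.58; adjusted p = 0.0154). Of these 4, Serpina3f alone kept its call in all 7 fits that left out a library. That of Serpinb6b was lost without PC replicate 3, that of Serpinb1a without any 1 library other than MBC replicate 3, and that of Cst3 without MBC replicate 1 or any 1 PC library.

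The transcription factors tied to the PC state or to the Jchain promoter were also tested. Of 13 genes 4 were called higher, 2 lower and 7 were not called, with a median log2 fold change of -0.12. Prdm1, which encodes Blimp-1, rose by 5.04 (SE 0.69), Xbp1 by 4.07 (SE 0.31) and Irf4 by 3.45 (SE 0.39; limma, adjusted p between 5.8e-05 and 0.0017). Pax5, a known repressor of Jchain in B cells, was 223.7, 789.3 and 137.6 scaled TPM in MBCs and 16.1 to 48.3 in PCs, and fell by 3.46 (SE 0.60; limma, adjusted p = 0.0063). Pou2f2 also fell, by 1.65 (SE 0.42; adjusted p = 0.0413). Its coactivator Pou2af1 passed at 1.16 (SE 0.29; adjusted p = 0.0394), but its direction turned with TPM as deposited (-0.17, adjusted p = 0.728) and with quantile normalization (-0.42, adjusted p = 0.473). The calls of Pou2af1 and Pou2f2 were lost without MBC replicate 1, without MBC replicate 2 or without any 1 PC library, and that of Pou2af1 in 13 of 15 alternatives. Spi1, Usf1, Usf2 and the 4 Mef2 genes did not pass with all libraries. Without MBC replicate 3, 6 genes of the list were called higher and 3 lower. The additional genes, named after their values were seen, were Mef2b, Usf1 and Spi1. Mef2b (3.50, limma, adjusted p = 0.0084) and Usf1 (1.93, adjusted p = 0.0489) were higher in PCs, and Spi1 was lower (-1.53, adjusted p = 0.031). Mef2b was 52.9 scaled TPM in MBC replicate 3, against 1.75 and 0.0944 in the other MBC libraries.

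**Figure D5:**
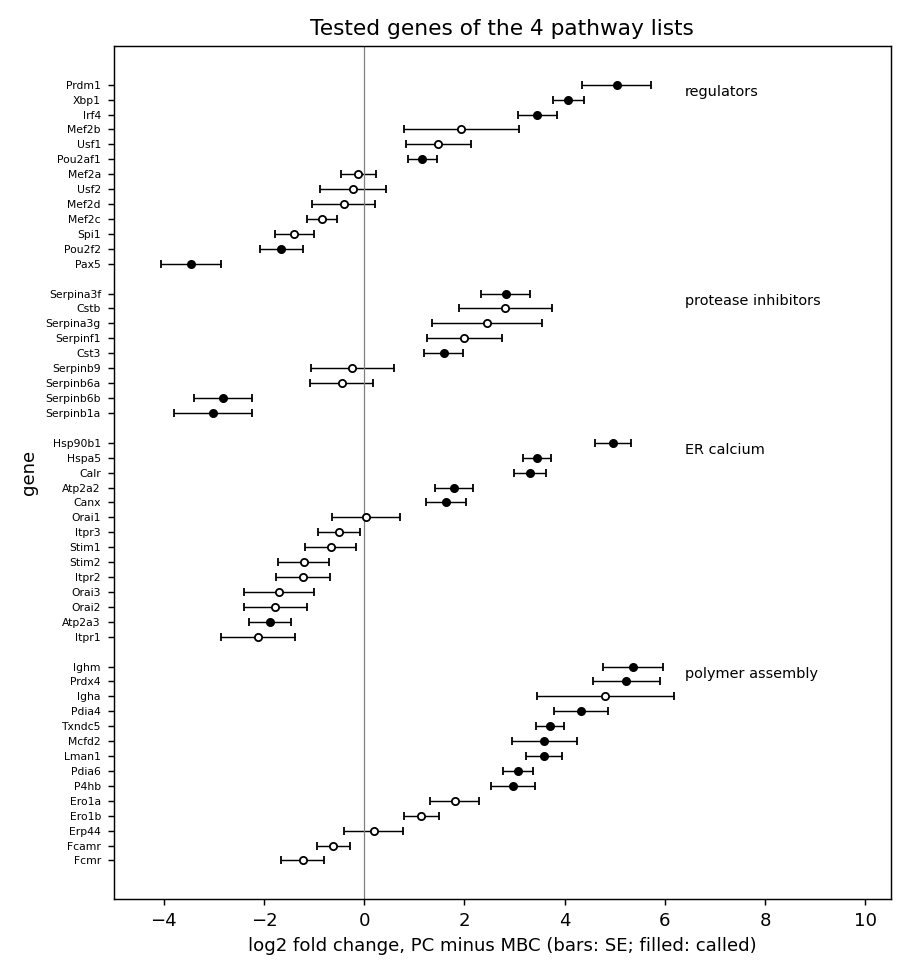
Log2 fold change, PC minus MBC, with SE bars for the tested genes of the 4 lists, where filled points were called by limma. Most polymer assembly genes lie right of 0, while the ER calcium genes spread from Itpr1 at -2.12 to Hsp90b1 at 4.97.

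The genes whose profile over the 7 libraries was most like that of each member were found by the root mean square (RMS) difference of log2(scaled TPM + 1), after each gene's mean was subtracted. The comparison is a description over 7 libraries in 2 groups, and genes at 0 in MBCs are held close together by the added 1. For Jchain the nearest was Fkbp11, an ER prolyl isomerase (RMS difference 0.33), then Prg2 (0.61), Ly6c2 (0.63), Bhlha15 (0.64) and Sdc1 (0.65). For Prg2 they were Ly6c2 (0.34), Fkbp11 (0.59), Jchain (0.61), Slpi (0.78) and Sdc1 (1.12). For Slpi, Jchain (0.74) and Prg2 (0.78) came first, then Fkbp11 (0.93), Ly6c2 (0.95) and Creld2 (1.03). Mzb1 had other neighbours, namely the prolyl isomerase gene Fkbp2 (0.39), Reln (0.47), the signal peptidase gene Spcs1 (0.48), Cacna1s (0.52) and Tmem176a (0.52). Jchain was in place 53 for Mzb1 (0.96), Slpi in place 199 and Prg2 in place 368, each with a smaller value in MBC replicate 3 relative to PCs than Mzb1 had. Fkbp11 averaged 118.9 ± 47.8 scaled TPM in PCs (SD, n = 4) and Ly6c2 241.8 ± 43.8.

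By the size of the log2 difference, Prg2 stood in place 1, Slpi in place 3, Jchain in place 4 and Mzb1 in place 20 of the 11344 tested genes outside immunoglobulin. The gene between Prg2 and Slpi was Ly6c2, at 7.90. With a pseudocount of 0.1, the places of Prg2, Slpi, Jchain and Mzb1 were 2, 11, 25 and 138. Under quantile normalization they were 1, 3, 11 and 35, so the places depend on the added value and the normalization. The order of Prg2 and Slpi rested on single libraries, since Slpi was in place 1 and Prg2 in place 2 without MBC replicate 3 (8.43 and 7.89), within the more frequent title prefix (8.39 and 7.89) and without PC replicate 1 (8.15 and 8.13). Without MBC replicate 3, Jchain was in place 4 and Mzb1 in place 16 of 10524 genes. By mean rank of level in PCs the places were 211, 12, 4 and 23.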

How the data were processed

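The authors deposited TPM values for 48795 Ensembl mouse genes in 1 column per library. The submitters' processing notes name STAR 2.5.2a, RSEM 1.3.0 and build GRCm38, and the annotation release is not given in the sources used here. Libraries were grouped by their descriptions. GENCODE M21 gave symbols by gene ID (48349 matched) and marked 429 immunoglobulin genes, which were set apart for ranks.

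Scaled TPM is TPM divided by the library's median ratio to the geometric mean over 9305 genes above 0 throughout. For the 11573 genes that reached 1 TPM in 3 or more libraries, log2(scaled TPM + 1) was fitted without covariates in limma 3.58.1 (R 4.3.3, trended variance), and p-values were Benjamini-Hochberg adjusted over all of them. The added 1 understates changes of low genes. The fit was tested on simulated data with the mean of each real gene and its SD from the fit, equal in both groups. In the real libraries the median SD of tested genes outside immunoglobulin was 0.91 in MBCs and 0.47 in PCs. The rates may therefore differ there. On the simulated data the fit called 25 of 100 genes changed by 2 on the log2 scale and 80 of 100 changed by 4. Of 11373 unchanged genes it called 10. A gene that was not called may therefore still differ between the groups.

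TPM holds no read totals. The TPM of 1 read was estimated from low values of genes with 1 transcript, a step added after the data were seen. Of these values 75.3% to 83.6% lay within 0.15 reads of whole, against 30% for evenly spread values. Floors cover counting error only.

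The members and lists were chosen with earlier results of these data known. Named genes were the members, at most 4 called genes of largest fold change per list, uncalled genes whose role bears on a member, the 5 nearest profiles, and 3 neighbours in rank on each side. Atp2a2, Pou2f2, Pou2af1 and the cell type markers given with values were named after their values were seen. Alternatives covered scaling, pseudocount, low-value filter, left-out libraries, replicate blocks and title prefix. Python 3.11.15, pandas 2.3.3 and numpy 2.4.6 were used.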

Additional observations from a re-analysis of the deposited data

Results flagged for a closer look

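In PCs, 87 genes or ratios were screened with Dixon's test for 1 outlying library of 4. It marked 5, where a rate of 1 in 20 gives about 4.35, and none was Jchain, Mzb1, Slpi, Prg2 or a ratio of them. Mef2c was 236.2 scaled TPM in PC replicate 3 and 186.7 to 190.3 elsewhere in the group. Serpinb9 was 7.84 in PC replicate 3 against 0.362 to 1.02. Serpina3f was 3.20 in PC replicate 2 against 7.42 to 7.78. Alas2, an erythroid gene, was 2.57 in PC replicate 2, where the other PC libraries did not exceed 0.307. Fcamr, a receptor for IgM and IgA, was 0.178 in PC replicate 2 and listed at 0 for the other PC libraries.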

How the results depend on the processing

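All 4 members were higher in PCs under each alternative run. With TPM as deposited, which moved the median log2 fold change over the 11573 genes to -0.91 from 0.14, the log2 difference was 5.56 for Jchain, 3.87 for Mzb1, 6.45 for Slpi and 7.38 for Prg2. It was 5.59 for Jchain with quantile normalization, and for Prg2 8.44 with immunoglobulin genes removed and 10.83 with a pseudocount of 0.1. Leaving out 1 library gave 6.63 to 7.22 for Jchain, 4.71 to 5.96 for Mzb1, 7.31 to 8.43 for Slpi and 7.79 to 8.27 for Prg2. The mean rank of Jchain was 1.25 among nuclear protein-coding genes.

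Over all genes, calls higher and lower in PCs numbered 742 and 248 in the report, 472 and 3018 with TPM as deposited, 393 and 431 with immunoglobulin genes removed, 437 and 123 with all genes above 0 tested, and 456 to 1624 and 93 to 881 with 1 library left out. Calls lower were 460 with quantile normalization and 448 within the more frequent title prefix. Polymer assembly genes had 1 lower call with TPM as deposited, after removal of immunoglobulin genes, under quantile normalization and within that prefix, and 0 to 1 with 1 library left out. ER calcium genes had 3 higher calls with TPM as deposited or immunoglobulin genes removed (3 to 5 with 1 library left out), and 8 lower calls with TPM as deposited, 0 with all genes above 0 and 2 within the prefix (0 to 5 with 1 left out). Protease inhibitors had 1 higher call with TPM as deposited, quantile normalization or all genes above 0 (1 to 3 with 1 left out), and lower calls were 1 with a pseudocount of 0.1 and 0 with all genes above 0 (0 to 2 with 1 left out). Regulators had 6 lower calls with TPM as deposited, 4 with immunoglobulin genes removed and 1 with all genes above 0 (1 to 3 with 1 left out). The cause of these shifts was not tested.

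Same-numbered MBC and PC libraries had correlated deviations of 0.109, -0.0398 and -0.0832, and those of the same title code 0.109, -0.00436 and 0.222. The value of 0.222, for MBC replicate 3 with PC replicate 4, was the highest of any MBC library with any PC library. The main fit took neither numbers nor title codes as pairs, and the labels cannot settle whether libraries were paired. With a replicate block by number or by title code, calls over all genes were 390 and 434 higher, and 60 and 83 lower. Either block gave ER calcium genes 3 higher and 0 lower calls, protease inhibitors 0 lower calls and regulators 1 lower call, and protease inhibitors had 0 higher calls with the number block and 1 with the title code block.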
